A study of Mus musculus with 23 samples.

Results

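The comparison described here set aortic endothelial cells kept in plasma of apolipoprotein E knockout mice (ApoE-KO, 5 arrays) against the same cells kept in plasma of wildtype mice (6 arrays). These 11 of the 23 arrays of the study were chosen by the plasma genotype in the sample labels, and the comparison covers 24704 genes with a symbol. The cells were primary endothelial cells of the mouse aorta (MAOEC), which form the inner lining of the vessel, and the labels give the strain C57BL/6J. They were grown to confluence, the serum of the medium was then replaced by 10% mouse plasma, and RNA was taken after 48 h. Each genotype is thus that of the mice that gave the plasma, while all cells were of 1 kind. The knockout donors had eaten Western Diet for 8 weeks, whereas no diet is labelled for the wildtype mice, and in every value below genotype and diet cannot be told apart. The other 12 arrays, 6 with plasma of ApoE-Stab1-KO mice and 6 with plasma of ApoE-Stab2-KO mice on the same diet, come from donors that lack a Stabilin scavenger receptor as well. They entered the estimate of the spread and the levels set side by side near the end. Nothing in the labels tells whether the replicates were independent cultures, separate mice or 1 plasma pool. All p-values therefore refer to the spread among these arrays, and part of it may be technical.

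Apolipoprotein E is the ligand by which the liver removes lipoprotein remnants from blood, and mice without it accumulate cholesterol-rich remnants, more so on a fatty diet. Cells meet their sterol need by uptake and by synthesis. When the sterol content of the endoplasmic reticulum is low, the transcription factor SREBP-2 is released and switches on the genes of cholesterol synthesis, and when oxysterols are plentiful, the nuclear receptor LXR switches on export genes such as Abca1. The related factor SREBP-1 serves fatty acid synthesis and desaturation. Aortic endothelium is the site where retained remnants first meet the vessel wall, and its identity rests on junction proteins, Notch and VEGF signalling and the endothelial microRNA of the Egfl7 locus.

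Each gene's level is the deposited log2 value. The normalization gave all arrays nearly the same distribution, so that a difference, the ApoE-KO mean minus the wildtype mean with its standard error (SE), is relative to the other genes of the array. A gene is called higher or lower where the adjusted p of limma, a linear model with a spread moderated across genes, was under 0.05 after Benjamini-Hochberg adjustment over all 24704 genes. Values of single arrays are given for ApoE-KO replicates 1 to 5 in that order and for the 6 wildtype arrays as the lowest, the median and the highest. Pairs of the 11 arrays correlated across genes at r = 0.995 to 0.997, no arrays held identical values, and log2 values ran from 2.52 to 13.9 with a median of 4.31. Precision is limited by the number of arrays: the median SE of a difference was 0.070.

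With ApoE-KO plasma 131 genes were called, which is 0.530% of the genes tested: 84 were higher (0.340%) and 47 lower (0.190%). At an unadjusted p under 0.05 there were 2602 genes, or 10.5%. The differences were small. The median size among called genes was 0.34, and 12 genes were past 1.5-fold. Higher were 7 of these, Sprr1a, Aldh1l2, Sema3c, Lss, Aldh1a7, Msmo1 and Cyp51, and lower were 5, Gm13609, Gm16617, Mir126a, Snord45b and Ly6f. Over all genes the median difference was 0.0026 and 51.2% of differences were positive. In 111 of the called genes the ApoE-KO and the wildtype arrays did not overlap, and in 20 they did. The same lack of overlap was found for 488 genes of the whole table (1.98%), with ApoE-KO higher in 268 (1.08%) and lower in 220 (0.891%). Protein-coding genes made up 118 of the calls. The 13 calls of other classes were 5 higher and 8 lower. In total 57 called genes belonged to at least 1 of 32 lists of pathway or family members, and 74 belonged to none. The count of calls in each list below is to be read against the shares of all genes given here.

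**Figure D1:**
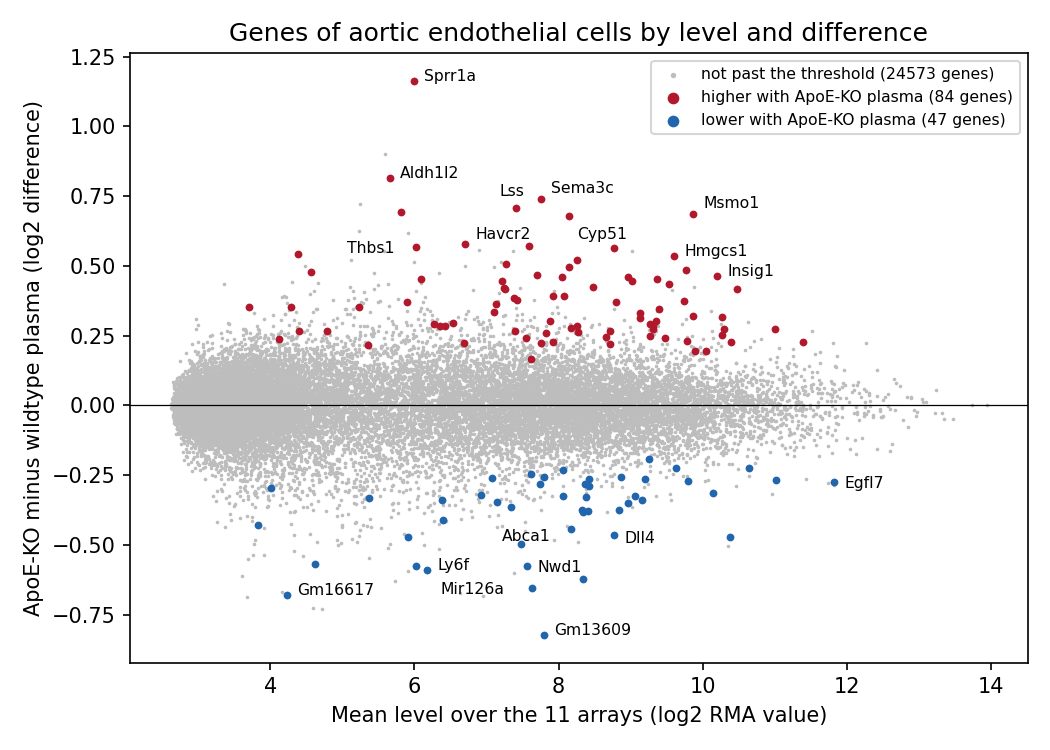
Each point is 1 gene, with its mean level over the 11 arrays (log2 RMA value) on the horizontal axis and the ApoE-KO minus wildtype difference (log2) on the vertical axis. The 84 genes called higher are red, the 47 called lower blue and all others grey; Sprr1a stands highest at 1.16 and Gm13609 lowest among called genes at -0.82, and several cholesterol enzymes lie among the red points of high level.

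Enzymes of cholesterol synthesis held more of the calls than any other of the 32 lists. Of 19 measured members of the list, 11 were higher and 0 lower, against 0.340% and 0.190% of all genes. In the list 8 did not pass, and 3 further members are not analysed here. The list's median difference was 0.39, against 0.0026 over all genes. In 10 members the arrays of the groups did not overlap, against 1.98% of all genes. The calls ran from the start of the mevalonate route to the last reduction. At the start stands Hmgcs1, which makes HMG-CoA. It read 10.06, 9.92, 9.79, 9.88 and 9.82 with ApoE-KO plasma and 9.25, 9.37 and 9.47 with wildtype plasma, so that every ApoE-KO array lay above every wildtype array. The difference was 0.53 ± 0.06 or 1.45-fold (limma adjusted p = 1.22e-05). Mvd, which decarboxylates mevalonate diphosphate, was higher by 0.33 ± 0.07 (adjusted p = 0.0410), but its arrays overlapped and it passed in 2 of 11 fits that left out 1 array each (adjusted p = 0.141 without ApoE-KO replicate 2). Fdft1, the squalene synthase, was higher by 0.49 ± 0.09 (adjusted p = 0.0139) with no overlap, and lost its call without ApoE-KO replicate 2 or 3 (adjusted p at most 0.0525). The other early enzymes did not pass: the differences were 0.23 for the kinase Mvk (adjusted p = 0.315), 0.14 for Pmvk (0.628), 0.07 for the isomerase Idi1 (0.917), 0.27 for the prenyl transferase Fdps (0.356) and -0.11 for Ggps1 of the side branch to protein prenylation (0.707).

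From squalene onwards the enzymes close the sterol rings and then trim them. Sqle, the squalene epoxidase, read 9.30, 9.28, 9.37, 9.19 and 9.20 with ApoE-KO plasma against 8.68, 8.83 and 8.91, a difference of 0.45 ± 0.05 (adjusted p = 8.27e-05). Lss, which closes the rings to lanosterol, read 7.95, 7.89, 7.65, 7.77 and 7.70 against 7.03, 7.09 and 7.17. Its wildtype arrays lay close together, the ApoE-KO arrays were spread more widely above them, and the difference was 0.71 ± 0.07 or 1.63-fold (adjusted p = 8.99e-06). Cyp51, the lanosterol demethylase, read 8.67, 8.55, 8.52, 8.51 and 8.31 against 7.64, 7.89 and 8.00, a difference of 0.68 ± 0.07 (adjusted p = 8.99e-06). Msmo1, the methylsterol oxidase, had the smallest adjusted p of all genes. It read 10.40, 10.27, 10.25, 10.18 and 10.08 against 9.45, 9.59 and 9.61, a difference of 0.69 ± 0.06 or 1.61-fold (adjusted p = 2.85e-06). Replicate 1 was the highest and replicate 5 the lowest ApoE-KO array for Msmo1, Cyp51, Nsdhl and Sc5d alike, so these genes, read in the same 5 RNA samples, are not independent of each other.

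Called enzymes continued through demethylation to the last step. Nsdhl, the sterol dehydrogenase that works beside Msmo1, read 9.26, 9.08, 9.10, 9.06 and 8.88 against 8.30, 8.53 and 8.67, with no overlap and a difference of 0.56 ± 0.07 (adjusted p = 7.37e-05). Its partner Hsd17b7 differed by 0.57 ± 0.10 (adjusted p = 0.00654), again with no overlap. Sc5d, the lathosterol desaturase, read 9.79, 9.61, 9.58, 9.57 and 9.52 against 9.05, 9.18 and 9.24, a difference of 0.45 ± 0.06 (adjusted p = 0.000222). Dhcr7, which reduces 7-dehydrocholesterol to cholesterol, differed by 0.39 ± 0.06 (adjusted p = 0.000948). In the same stretch the reductases Tm7sf2 and Lbr and the isomerase Ebp did not pass, with differences of 0.27 (adjusted p = 0.264), -0.02 (0.960) and 0.07 (0.731). All of the 11 calls but Mvd and Fdft1 also passed with any 1 of the 11 arrays left out, that is 9 of the 11. Of these 9, Hsd17b7 was not called when the 11 compared arrays were fitted alone (adjusted p = 0.0554).

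**Figure D2:**
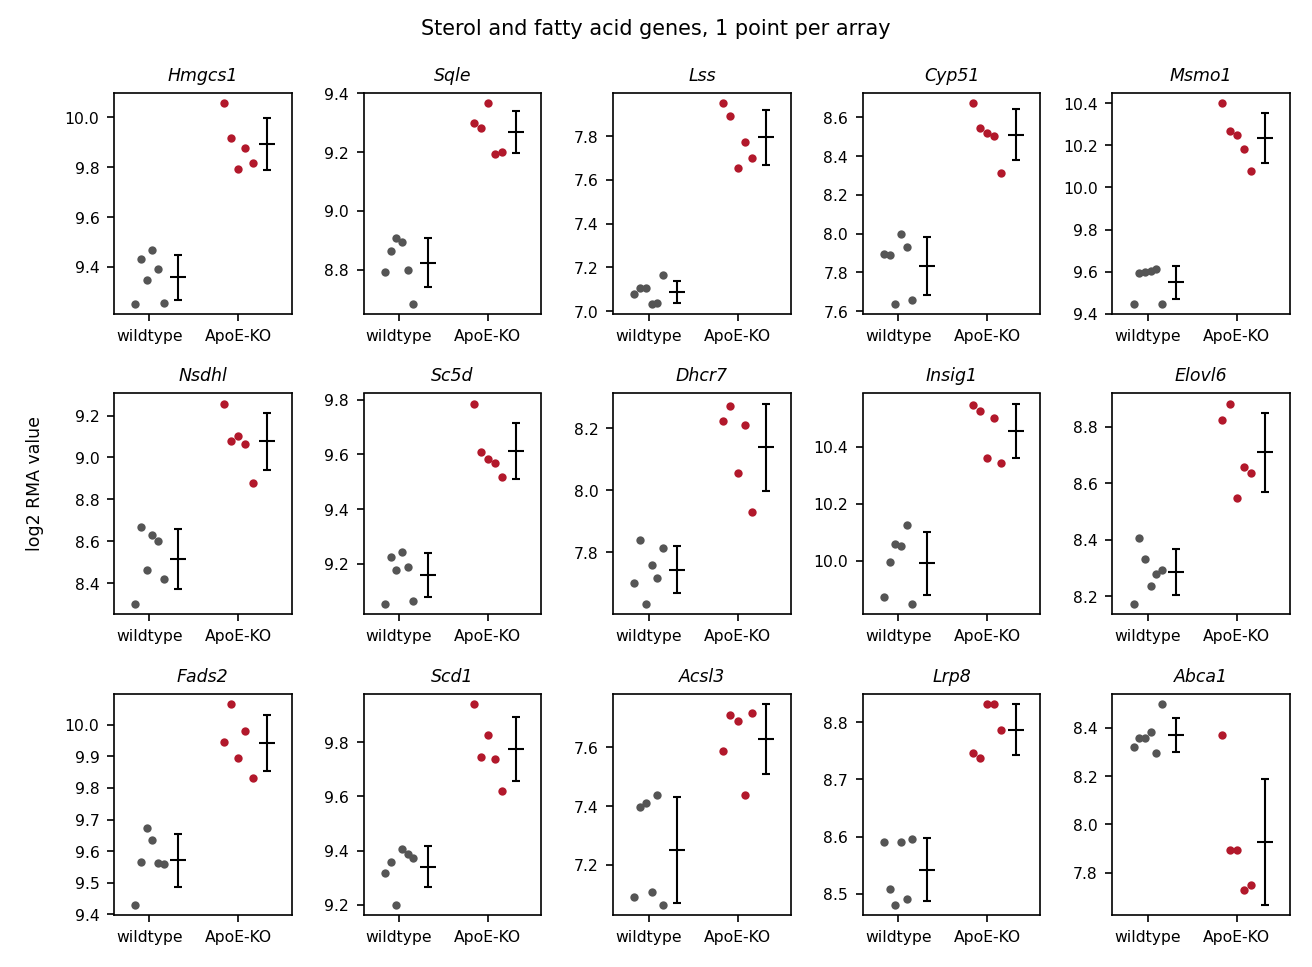
Levels of 15 sterol and fatty acid genes (log2 RMA value, each panel with its own axis that does not start at 0), 1 point per array in order of replicate, with the mean and SD of each group beside the points. In every panel but that of Abca1 all 5 ApoE-KO points lie above all 6 wildtype points; for Abca1, ApoE-KO replicate 1 at 8.37 lies among the wildtype points and the other 4 lie below them.

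Promoter sequence was read for all members with a known start, called or not, because 11 of the 19 were called in the same direction. The RefSeq table of GRCm38.p6 gave a transcription start for 16 of the 19 measured enzymes, among them 9 of the 11 called. A CCAAT box, the letters CCAAT on either strand and the site of the factor NF-Y that works beside SREBP-2, stood within 250 bases before the start in 16 of 16 members and in 9 of the 9 called, against 37.5% of the 27025 genes of the table. The sterol element searched as TCACNCCAC on either strand was found in 1 of the 16 members, Hmgcs1, against 1.22% of genes. These matches describe letters and not bound sites, and a window without the letters says nothing of the factor. The 150 bases before the start of 6 called enzymes are shown 5′ to 3′ on the gene's own strand because these genes had the smallest adjusted p among the list's members with a start in the table; capitals mark a CCAAT box (CCAAT, or ATTGG for the other strand) and, in Hmgcs1, the sterol element.
Hmgcs1 (GRCm38.p6 chr13:119690201-119690350, plus strand): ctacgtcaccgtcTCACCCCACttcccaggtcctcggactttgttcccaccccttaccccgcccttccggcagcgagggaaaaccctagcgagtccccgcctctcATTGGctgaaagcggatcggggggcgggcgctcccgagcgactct
Lss (GRCm38.p6 chr10:76531455-76531604, plus strand): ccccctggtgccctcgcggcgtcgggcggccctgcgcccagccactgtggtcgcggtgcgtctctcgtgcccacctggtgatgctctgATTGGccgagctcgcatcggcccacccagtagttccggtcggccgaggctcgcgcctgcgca
Cyp51 (GRCm38.p6 chr5:4104698-4104847, minus strand): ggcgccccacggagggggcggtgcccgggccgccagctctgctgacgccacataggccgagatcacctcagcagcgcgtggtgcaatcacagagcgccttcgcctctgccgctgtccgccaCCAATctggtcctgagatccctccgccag
Msmo1 (GRCm38.p6 chr8:64733579-64733728, minus strand): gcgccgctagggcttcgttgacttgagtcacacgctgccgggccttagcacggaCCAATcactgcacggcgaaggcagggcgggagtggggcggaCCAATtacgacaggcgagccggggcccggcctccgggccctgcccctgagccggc
Nsdhl (GRCm38.p6 chrX:72918371-72918520, plus strand): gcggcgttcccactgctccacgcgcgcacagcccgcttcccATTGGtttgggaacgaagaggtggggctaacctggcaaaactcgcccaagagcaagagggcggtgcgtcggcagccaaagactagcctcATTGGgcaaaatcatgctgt
Sc5d (GRCm38.p6 chr9:42264301-42264450, minus strand): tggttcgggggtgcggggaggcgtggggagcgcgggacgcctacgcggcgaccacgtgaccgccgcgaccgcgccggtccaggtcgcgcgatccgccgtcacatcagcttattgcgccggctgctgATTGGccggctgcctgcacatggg
Msmo1 and Nsdhl carried 2 CCAAT boxes each in this stretch, and the other 4 carried 1.

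Genes that sense sterol and control SREBP gave 1 call in each direction. Of 19 measured members of that list, Insig1 was higher and Gramd1b lower, the median difference was 0.06, and 4 further members are not analysed here. Insig1, the sterol-dependent anchor that holds SREBP in the endoplasmic reticulum and is itself an SREBP target, read 10.55, 10.53, 10.36, 10.50 and 10.34 against 9.85, 10.02 and 10.13. The groups did not overlap and the difference was 0.46 ± 0.06 (adjusted p = 0.000296). Gramd1b, a protein that carries plasma membrane cholesterol to the endoplasmic reticulum, was lower (difference -0.26 ± 0.06, adjusted p = 0.0397), and it passed in 1 of 11 fits with an array left out (adjusted p = 0.119 without ApoE-KO replicate 2). Srebf2, the gene of SREBP-2, differed by 0.25 ± 0.06 and did not pass (adjusted p = 0.0756); its 5 ApoE-KO arrays read 9.90, 9.89, 9.94, 9.91 and 9.94, and wildtype replicate 1 at 9.92 reached into them. Tmem97, which controls the cholesterol transporter NPC1, differed by 0.38 ± 0.09 with no overlap (adjusted p = 0.0695), and Srebf1 by 0.05 ± 0.06 (adjusted p = 0.848).

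Export and uptake gave few calls. Abca1, the transporter that loads cell cholesterol onto apolipoprotein A-I, was the only called gene among 15 measured LXR and efflux genes, whose median difference was -0.08. It read 8.37, 7.89, 7.89, 7.73 and 7.75 with ApoE-KO plasma and 8.29, 8.36 and 8.50 with wildtype plasma. ApoE-KO replicate 1 thus lay within the wildtype range, and the other 4 lay below it. The difference was -0.44 ± 0.08 or a ratio of 0.736 (adjusted p = 0.00654). The call held with any 1 array left out, but not in the fit of the 11 compared arrays alone (adjusted p = 0.0852). Abcg1, its partner for export to HDL, differed by -0.13 ± 0.07 (adjusted p = 0.534), Mylip, the LXR-induced degrader of lipoprotein receptors, by 0.19 ± 0.05 (0.108), Apoe by -0.02 ± 0.09 (0.974) and Smpdl3a by -0.33 ± 0.10 (0.163), and none of these passed.

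Of 24 measured lipoprotein and scavenger receptors, 2 were higher, with a list median of 0.02. Lrp8, a receptor for apolipoprotein E and reelin, read 8.75, 8.74, 8.83, 8.83 and 8.79 against 8.48, 8.55 and 8.60. Its difference of 0.24 ± 0.04 was small, yet all ApoE-KO arrays lay above all wildtype arrays (adjusted p = 0.00654). Cd36, which takes up fatty acids and oxidised lipoprotein, was higher by 0.32 ± 0.07 (adjusted p = 0.0487) with no overlap, but passed in 1 of 11 fits with an array left out (adjusted p = 0.151 without ApoE-KO replicate 2). The endothelial Stabilin genes did not pass. Stab2 differed by -0.29 ± 0.07 with overlapping arrays (adjusted p = 0.0547) and Stab1 by -0.19 ± 0.05 without overlap (adjusted p = 0.114). The receptor Vldlr differed by 0.09 ± 0.05 (0.571) and Olr1, a receptor for oxidised LDL, by 0.06 ± 0.05 (0.792). Among genes of proteins that Stabilins remove from blood, Tgfbi differed by -0.02 ± 0.07 (0.954), Postn by 0.03 ± 0.05 (0.898) and Reln by 0.10 ± 0.04 (0.424).

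Fatty acid genes were called at the steps that lengthen and desaturate chains. Of 22 measured members, 4 were higher and 0 lower, against 0.340% and 0.190% of all genes, and the list median was 0.11. Of the differences 18 were positive, against 51.2% over all genes. Elovl6, which lengthens palmitate, read 8.83, 8.88, 8.55, 8.66 and 8.64 against 8.17, 8.29 and 8.41, with no overlap and a difference of 0.42 ± 0.07 (adjusted p = 0.00148). The delta-9 desaturase Scd1 differed by 0.43 ± 0.08 (adjusted p = 0.0111), the delta-6 desaturase Fads2 by 0.37 ± 0.06 (0.00221) and its relative Fads3 by 0.29 ± 0.05 (0.00884), each without overlap. Synthesis of the chain itself was not called: Fasn differed by 0.04 ± 0.06 (0.892) and Acaca, the acetyl-CoA carboxylase, by 0.00 ± 0.09 (0.999). Among 28 measured PPAR targets and genes of fatty acid oxidation, Cd36 and Acsl3 were higher and the list median was 0.04. Acsl3, which activates fatty acids at lipid droplets, read 7.59, 7.71, 7.69, 7.44 and 7.72 against 7.06, 7.25 and 7.44. Of its wildtype arrays 3 lay between 7.06 and 7.11 and 3 between 7.40 and 7.44, and its lowest ApoE-KO array barely cleared the highest wildtype array. The difference was 0.38 ± 0.07 (adjusted p = 0.0111), and the call was lost without ApoE-KO replicate 2 (adjusted p = 0.0535). Angptl4, an inhibitor of lipoprotein lipase, differed by 0.24 ± 0.06 (adjusted p = 0.0574), Gpihbp1, which holds the lipase on endothelium, by -0.32 ± 0.08 (0.0547), Plin2 by 0.07 ± 0.05 (0.644), Pdk4 by -0.02 ± 0.06 (0.961) and Cpt1a by 0.05 ± 0.04 (0.736), none past the threshold.

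Other called lipid genes stood in no list. Acot2, a mitochondrial thioesterase that frees fatty acids from coenzyme A, read 10.81, 10.82, 10.68, 10.68 and 10.52 against 10.20, 10.28 and 10.37, with no overlap and a difference of 0.42 ± 0.06 (adjusted p = 0.000320). Idh1, the cytosolic isocitrate dehydrogenase that supplies NADPH for lipid synthesis, differed by 0.35 ± 0.06 (adjusted p = 0.00678). The phosphatidate phosphatase genes split, with Lpin1 higher by 0.28 ± 0.05 (adjusted p = 0.00985) and Lpin3 lower, with a difference of -0.32 ± 0.07 (0.0464). Lpin1 lost its call without ApoE-KO replicate 2 (adjusted p = 0.0517) and Lpin3 passed in 1 of 11 such fits (adjusted p = 0.140 without ApoE-KO replicate 3). Idh1, Lpin1 and Lpin3 were chosen after their values were seen.

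The highest fold belonged to a gene outside lipid metabolism. Sprr1a, a small proline-rich protein of the cornified envelope of skin, read 6.27, 6.73, 6.88, 6.71 and 6.54 against 5.20, 5.45 and 5.74. The lowest ApoE-KO array lay well above the highest wildtype array, and the difference was 1.16 ± 0.14 or 2.24-fold (adjusted p = 7.37e-05). Other genes best known from epithelium were called with it, each with no overlap: involucrin (Ivl) at 0.28 ± 0.06 (adjusted p = 0.0316), the keratins Krt19 at 0.35 ± 0.06 (0.00362) and Krt20 at 0.30 ± 0.06 (0.00985), mesothelin (Msln) at 0.32 ± 0.07 (0.0342) and the prostate stem cell antigen Psca at 0.52 ± 0.11 (0.0359). Ivl, Krt19, Krt20 and Msln were chosen after their values were seen. With 1 array left out, Ivl passed in 5 of 11 fits (adjusted p = 0.0900 without ApoE-KO replicate 2), Msln in 2 (adjusted p = 0.109 without ApoE-KO replicate 3) and Psca in 4 (adjusted p = 0.0913 without ApoE-KO replicate 5), while Sprr1a, Krt19 and Krt20 passed in all 11. A list of keratinizing epithelium and a list of mesothelial cells were written after these values were seen and are described only. In the first, 4 of 15 measured members were higher, Sprr1a, Ivl, Krt19 and Krt20, and the median difference was 0.02. The summed log2 level of its members ran from 67.5 to 68.8 in ApoE-KO and from 65.4 to 66.7 in wildtype arrays. That sum holds the 4 called genes, so it is no separate reading of a cell type. Krt19 is in the mesothelial list too, so the lists do not keep kinds of epithelium apart. Of the first list 5 members lay above the array median. Others lay below it: the means with ApoE-KO and wildtype plasma were 3.63 and 3.63 for Krt5, 3.61 and 3.69 for Krt14, 3.91 and 3.86 for loricrin (Lor) and 3.77 and 3.77 for filaggrin (Flg). All other measured members of the first list were not called, among them Krt1, Krt10, Tgm1 and the relatives Sprr1b, Sprr2d, Sprr2h and Sprr3. In the mesothelial list 2 of 10 were higher, Msln and Krt19, and the median difference was 0.09. The summed level, which holds Msln and Krt19, ran from 49.4 to 50.8 against 48.3 to 49.0. Of the mesothelial members 5 of 10 lay above the median level of all genes, among them Msln with means of 10.05 and 9.73. Wt1 (4.16 and 4.11) and Muc16 (2.99 and 2.98) lay below it. The part of such cells in these differences was not tested.

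Markers of the other cells that a culture from aorta could hold were read the same way. All 10 endothelial markers lay above the array median, and their summed log2 level ran from 109.9 to 111.9 in ApoE-KO and from 111.7 to 112.4 in wildtype arrays; 2 of them, Cldn5 and Egfl7, were lower. Of smooth muscle 7 markers were measured (summed level 35.2 to 35.9 against 35.7 to 36.4), of fibroblasts 7 (28.05 to 28.8 against 27.5 to 28.5), of macrophages and leukocytes 7 (31.7 to 32.4 against 31.3 to 32.2) and of blood cells and platelets 4 (15.7 to 16.3 against 15.8 to 16.1). Of simple epithelium 4 were measured (16.9 to 17.2 against 16.8 to 17.2), of hepatocytes 4 (14.1 to 14.9 against 13.97 to 14.6) and of lymphatic endothelium 4 (30.6 to 30.9 against 30.25 to 31.0). None of the markers of these other cells was called. Above the array median lay 3 of 7 smooth muscle, 2 of 7 fibroblast and 1 of 7 macrophage and leukocyte markers. The same held for 1 of 4 blood, 1 of 4 epithelial, 3 of 4 lymphatic and 0 of 4 hepatocyte markers. Mean levels with ApoE-KO and wildtype plasma were 10.2 and 10.3 for Smtn of smooth muscle and 11.3 and 11.1 for Cd68 of macrophages. They were 6.15 and 5.88 for Pdgfra of fibroblasts, 5.92 and 6.04 for Krt8 of epithelium and 12.8 and 12.7 for the lymphatic Lyve1. Myh11, Lum, Ptprc, Epcam, Alb and Prox1 of these lists lay below the array median in both groups. The part of these other cells in the differences was not tested.

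Among genes of vessel guidance the class 3 semaphorins Sema3c and Sema3e were called and none of their receptors. Semaphorins are secreted cues that act through plexins and neuropilins, and Sema3e binds plexin D1 directly. Of 31 measured semaphorins, plexins and neuropilins, 2 were higher and 0 lower, against 0.340% and 0.190% of all genes. The list median was -0.03. Sema3c read 8.15, 8.16, 8.34, 8.15 and 7.98 against 7.28, 7.42 and 7.57, so that the groups lay well apart, and its difference was 0.74 ± 0.08 or 1.67-fold (adjusted p = 3.22e-05). Sema3e read 8.49, 8.43, 8.40, 8.48 and 8.27 against 7.79, 7.90 and 8.03, also without overlap, a difference of 0.50 ± 0.06 (adjusted p = 9.75e-05). The receptor gene Plxnd1 differed by -0.19 ± 0.05 (0.110), Nrp1 by -0.05 ± 0.07 (0.881) and Nrp2 by -0.11 ± 0.06 (0.536). The vascular Sema3g differed by -0.21 ± 0.10 (0.474).

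Notch genes were lower where they were called. Of 25 measured members, 0 were higher and 2 lower, against 0.340% and 0.190% of all genes, with a median of -0.02. Dll4, the Notch ligand of arterial and tip cells, read 8.72, 8.48, 8.34, 8.61 and 8.46 against 8.85, 9.02 and 9.05, so that the highest ApoE-KO array lay below the lowest wildtype array. Its difference was -0.46 ± 0.07 or a ratio of 0.725 (adjusted p = 0.00257). Mfng, a fringe enzyme that puts sugars on Notch, differed by -0.26 ± 0.05 with no overlap (adjusted p = 0.00654). The receptor Notch1 differed by -0.27 ± 0.07 (adjusted p = 0.0850), Notch4 by -0.14 ± 0.06 (0.328) and the ligands Jag2 by -0.30 ± 0.08 (0.124) and Jag1 by -0.01 ± 0.07 (0.987), none of which passed. Target genes of the pathway were not called: Hey1 differed by 0.04 ± 0.08 (0.926) and Hes1 by -0.02 ± 0.07 (0.959).

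Growth factor genes that endothelium sends to its neighbours were called in opposite directions. Of 22 measured VEGF, PDGF and angiopoietin genes, 1 was higher and 1 lower. Pdgfb, which recruits pericytes and smooth muscle, read 8.12, 8.16, 8.31, 8.18 and 8.28 against 8.38, 8.51 and 8.60, with no overlap and a difference of -0.28 ± 0.05 (adjusted p = 0.00412). Vegfa, the main growth factor of vessels, was higher by 0.26 ± 0.05 (adjusted p = 0.0251) with no overlap, and passed in 6 of 11 fits with an array left out (adjusted p = 0.0814 without ApoE-KO replicate 1). Its receptors were not called, with differences of 0.03 ± 0.06 for Kdr (0.908) and -0.11 ± 0.05 for Flt1 (0.438). Angpt2 differed by -0.10 ± 0.09 (0.767).

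**Figure D3:**
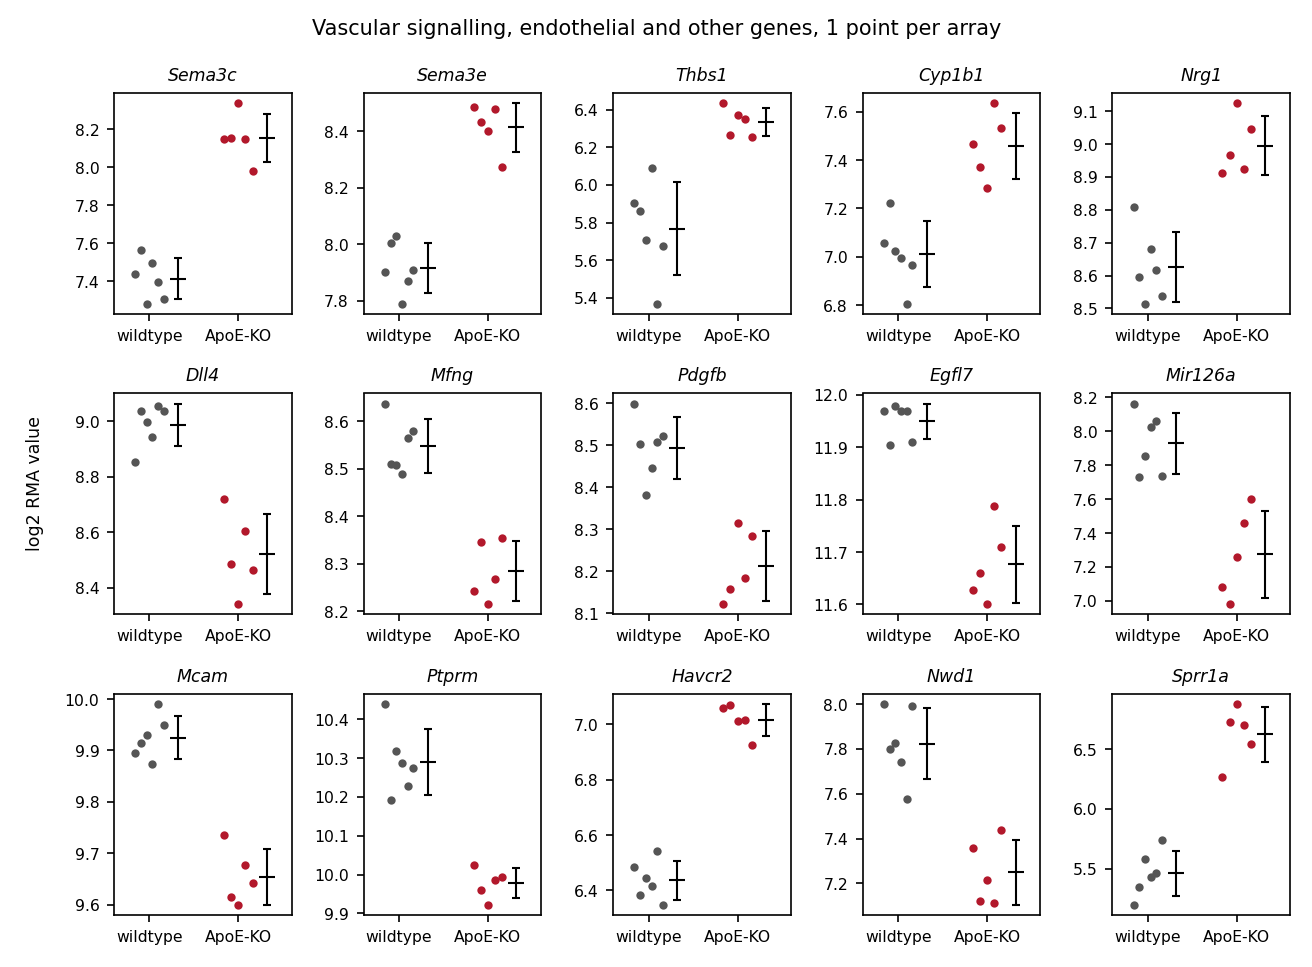
Levels of 15 genes of vessel signalling, endothelial identity and other functions (log2 RMA value, each panel with its own axis that does not start at 0), 1 point per array in order of replicate, with the mean and SD of each group beside the points. The groups do not overlap in any of the 15 panels; Dll4, Mfng, Pdgfb, Egfl7, Mir126a, Mcam, Ptprm and Nwd1 lie lower and the other 7 lie higher with ApoE-KO plasma.

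Several genes that mark endothelium were slightly lower. Of 33 measured members of the endothelial identity list, 4 were lower and 0 higher, against 0.190% and 0.340% of all genes. Of the differences 30 were negative, while over all genes 51.2% were positive, and the median was -0.10 against 0.0026. In 7 members every ApoE-KO array lay below every wildtype array, as in 0.891% of all genes. The summed level of the 10 endothelial markers lay lower in ApoE-KO arrays, with ranges that overlapped, as given above, and its part in these differences was not tested. In bulk RNA, fewer cells of a type and less RNA per cell cannot be told apart. Egfl7, a protein that endothelial cells secrete into their matrix, read 11.63, 11.66, 11.60, 11.79 and 11.71 against 11.90, 11.97 and 11.98, with no overlap. Its difference was -0.27 ± 0.04 or a ratio of 0.827 (adjusted p = 0.00136). The adhesion molecule Mcam differed by -0.27 ± 0.04 (adjusted p = 0.00148), also without overlap. The tight junction gene Cldn5 at -0.27 ± 0.06 (adjusted p = 0.0459) and the homeobox gene Hlx at -0.33 ± 0.07 (0.0367) were called too, but passed in 1 and 5 of the 11 fits with an array left out (adjusted p = 0.151 without ApoE-KO replicate 2 and adjusted p = 0.100 without ApoE-KO replicate 1). The junction cadherin Cdh5 differed by -0.05 ± 0.04 (0.730), Pecam1 by -0.01 ± 0.05 (0.964), Vwf by -0.06 ± 0.13 (0.932) and Nos3, the endothelial nitric oxide synthase, by -0.08 ± 0.04 (0.496). Ptprm, a phosphatase of endothelial contacts that is in no list, was lower with no overlap (difference -0.31 ± 0.05, adjusted p = 0.00138).

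The microRNA gene Mir126a lies within Egfl7 and was lower as well. Its 3p product is the best known microRNA of endothelium, and its mature sequence is shown because host and microRNA were both called; that of Mir1962 is shown as the other called microRNA gene. Both sequences are from RefSeq on GRCm38.p6, with the seed (bases 2 to 8) in capitals; the first lies at chr2:26591402-26591423 and the second at chr7:135566234-135566255, both on the plus strand.
mmu-miR-126a-3p: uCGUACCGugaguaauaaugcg
mmu-miR-1962: aGAGGCUGgcacugggacacau
Mir126a read 7.08, 6.98, 7.26, 7.46 and 7.60 with ApoE-KO plasma and 7.73, 7.94 and 8.16 with wildtype plasma, and the highest ApoE-KO array lay below the lowest wildtype array. The difference was -0.65 ± 0.12 or a ratio of 0.636 (adjusted p = 0.00884), and the call held with any 1 array left out. Mir1962 differed by -0.43 ± 0.09 (adjusted p = 0.0402); it lies within Ptpre, which differed by 0.06 (adjusted p = 0.861), and its level was below the array median. It passed in 1 of 11 fits with an array left out (adjusted p = 0.144 without ApoE-KO replicate 2). The microRNAs have different seeds. Whether a probe set reads the mature microRNA, its precursor or the host transcript was not tested.

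Genes of TGF-beta and YAP signalling included 2 calls among 26 measured members, both higher, with a list median of 0.02. Thbs1, thrombospondin 1, an inhibitor of vessel growth that also activates latent TGF-beta, read 6.43, 6.27, 6.37, 6.35 and 6.25 against 5.37, 5.78 and 6.09. Its wildtype arrays were spread widely and its ApoE-KO arrays lay close together above them, and the difference was 0.57 ± 0.10 (adjusted p = 0.00940). Ccn2, a matricellular target of TGF-beta and YAP, differed by 0.51 ± 0.11 with no overlap (adjusted p = 0.0340), and passed in 4 of 11 fits with an array left out (adjusted p = 0.101 without ApoE-KO replicate 3). Ankrd1 differed by 0.55 ± 0.13 with no overlap and just missed the threshold (adjusted p = 0.0518), and Ccn1 by 0.29 ± 0.09 (0.186). Smad1, which carries BMP signals, was the only call among 27 BMP and Smad genes. It read 8.80, 8.76, 8.62, 8.61 and 8.82 against 8.87, 8.96 and 9.11, with no overlap, a difference of -0.25 ± 0.05 (adjusted p = 0.0195), and lost its call without ApoE-KO replicate 3, ApoE-KO replicate 4 or wildtype replicate 1 (adjusted p up to 0.0765). Its target genes Id1 and Smad6 differed by 0.00 ± 0.08 (0.995) and 0.08 ± 0.06 (0.733).

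Among 16 measured genes that respond to blood flow or protect the vessel, Cyp1b1 was higher and none was lower. Cyp1b1, a cytochrome P450 that is switched on by shear stress and by the aryl hydrocarbon receptor, read 7.47, 7.37, 7.28, 7.64 and 7.53 against 6.80, 7.01 and 7.22, with no overlap and a difference of 0.45 ± 0.09 (adjusted p = 0.0133). The flow-responsive factors did not pass, Klf2 at -0.15 ± 0.07 (0.402) and Klf4 at 0.11 ± 0.08 (0.674), nor did Thbd at -0.04 ± 0.04 (0.797) and Edn1 at -0.03 ± 0.09 (0.951). Cyp1a1, the classical target of the aryl hydrocarbon receptor, differed by -0.09 (adjusted p = 0.885) and Tiparp, another of its targets, by 0.04 (0.888); both were chosen after their values were seen.

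The ligands Nrg1, Ereg and Tgfa of the EGF receptor family were higher, while the receptors were not called. Of 15 measured members, 3 were higher and 0 lower, against 0.340% and 0.190% of all genes, and the median was 0.07. Neuregulin (Nrg1), which endothelium releases to act on ErbB receptors, read 8.91, 8.97, 9.12, 8.92 and 9.05 against 8.51, 8.61 and 8.81, with no overlap and a difference of 0.37 ± 0.07 (adjusted p = 0.00654). Epiregulin (Ereg) differed by 0.30 ± 0.05 (adjusted p = 0.00759) and transforming growth factor alpha (Tgfa) by 0.27 ± 0.06 (0.0464), both without overlap; Tgfa passed in 2 of 11 fits with an array left out (adjusted p = 0.133 without ApoE-KO replicate 2). Hbegf differed by 0.08 ± 0.06 (0.755) and the receptor Egfr by 0.10 ± 0.07 (0.713). Of 21 immediate early genes, Jun alone was called. It read 8.65, 8.86, 8.81, 8.91 and 9.04 against 8.48, 8.57 and 8.70, and ApoE-KO replicate 1 overlapped the wildtype arrays. Its difference of 0.27 ± 0.06 (adjusted p = 0.0420) passed in 2 of 11 fits with an array left out (adjusted p = 0.112 without ApoE-KO replicate 2). The immediate early gene Fosl1 differed by 0.27 ± 0.07 (0.0746), Fos by -0.15 ± 0.11 (0.691) and Egr1 by 0.06 ± 0.12 (0.926).

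Of 23 measured genes of retinoid metabolism, 3 were higher and 0 lower, against 0.340% and 0.190% of all genes. The list median was 0.06. Dhrs9, a short-chain dehydrogenase that oxidises retinol, read 9.35, 9.34, 9.35, 9.28 and 9.26 against 8.86, 9.01 and 9.07, with no overlap and a difference of 0.33 ± 0.05 (adjusted p = 0.00178). Aldh1a7, a mouse relative of the retinal dehydrogenase Aldh1a1, differed by 0.69 ± 0.13 or 1.62-fold (adjusted p = 0.00985) with no overlap; Aldh1a1 itself differed by 0.13 ± 0.08 (0.619), and whether its probes also bind the other transcript was not tested. Cyp26b1, which breaks down retinoic acid, was higher by 0.47 ± 0.10 (adjusted p = 0.0383), but ApoE-KO replicate 5 at 7.45 lay within the wildtype range, and the gene passed in 2 of 11 fits with an array left out (adjusted p = 0.119 without ApoE-KO replicate 3).

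Of 35 measured members of the serine, folate and amino acid response list, 4 were higher and 0 lower. Over all genes these shares were 0.340% and 0.190%, and the list median was 0.11. Positive differences numbered 26, against 51.2% over all genes. The calls were the folate enzymes Aldh1l2 and Mthfd2, the serine enzyme Psat1 and the transcription factor Atf5. Aldh1l2, which oxidises formyl-tetrahydrofolate in mitochondria, read 6.29, 6.50, 6.20, 5.83 and 5.69 against 4.75, 5.33 and 5.53. The lowest wildtype array, replicate 1 at 4.75, stood apart from the other 5, and the arrays of the groups did not overlap. The difference was 0.82 ± 0.15 or 1.76-fold (adjusted p = 0.0100), and the call was lost without ApoE-KO replicate 2 (adjusted p = 0.0537). Mthfd2, its neighbour in mitochondrial folate metabolism, was higher by 0.46 ± 0.11 (adjusted p = 0.0482), the stress factor Atf5 by 0.42 ± 0.09 (0.0255) and Psat1 of serine synthesis by 0.29 ± 0.06 (0.0461). These 3 passed in 3, 6 and 2 of the 11 fits with an array left out, and each had its highest adjusted p without ApoE-KO replicate 2 (0.170, 0.106 and 0.166). Asns, the asparagine synthetase, differed by 0.41 ± 0.10 (0.0621), Atf4 by 0.12 ± 0.06 (0.518), Trib3 by 0.08 ± 0.08 (0.802) and Chac1 by 0.30 ± 0.10 (0.196), none past the threshold. For Aldh1l2, Mthfd2, Psat1, Atf5, Asns, Atf4 and Chac1 the ApoE-KO arrays 1 to 3 were each higher than arrays 4 and 5. For Atf5, Asns, Atf4 and Chac1, arrays 4 and 5 lay within or below the wildtype range, so those differences rest on arrays 1 to 3. The glutamine transporter Slc1a5, in no list and chosen after its values were seen, was higher by 0.38 ± 0.08 (adjusted p = 0.0346) and passed in 3 of the 11 fits (adjusted p = 0.0900 without ApoE-KO replicate 2). None of 19 aminoacyl-tRNA synthetases was called, against 0.530% of all genes. Of their differences 16 were positive, against 51.2% over all genes, and their median was 0.12. Mars1 had the smallest adjusted p at 0.103, with a difference of 0.18 ± 0.05.

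The metallothionein genes Mt1 and Mt2, whose proteins bind zinc and copper, were higher. Mt2 read 9.00, 9.25, 9.45, 9.22 and 9.20 against 8.57, 8.77 and 8.93, with no overlap and a difference of 0.46 ± 0.09 (adjusted p = 0.0144), and lost its call without ApoE-KO replicate 2 or 3 (adjusted p up to 0.0654). Mt1 was higher by 0.25 ± 0.06 (adjusted p = 0.0407), with arrays that overlapped, and passed in 2 of 11 fits with an array left out (adjusted p = 0.123 without ApoE-KO replicate 3). These were the only calls among 25 measured metallothioneins and zinc transporters and among 15 glucocorticoid targets. The zinc exporter Slc30a1, a target of the same metal-sensing factor, differed by -0.02 ± 0.05 (0.951), and the glucocorticoid targets Tsc22d3 and Fkbp5 by -0.11 ± 0.07 (0.611) and 0.10 ± 0.06 (0.610).

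Sugar and oxygen genes gave 3 calls among 33 measured members, with a median of 0.08. Fbp1, the fructose bisphosphatase of gluconeogenesis, was lower. It read 6.24, 6.15, 6.00, 6.15 and 6.34 against 6.50, 6.54 and 6.83, and wildtype replicate 2 at 6.83 stood above the other 5, while the groups did not overlap. The difference was -0.41 ± 0.07 or a ratio of 0.753 (adjusted p = 0.00815), and the call held with any 1 array left out. Vegfa, described above, and Ero1a, an oxidase of protein folding that hypoxia induces, were higher; Ero1a differed by 0.27 ± 0.06 (adjusted p = 0.0324) with overlapping arrays and passed in 4 of 11 fits with an array left out (adjusted p = 0.100 without ApoE-KO replicate 1). The glucose transporter Slc2a1 differed by 0.21 ± 0.08 (0.313), Pgk1 by 0.16 ± 0.12 (0.709) and Ldha by 0.08 ± 0.07 (0.754).

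Surface proteins of immune recognition were called in both directions. Of 15 measured checkpoint and butyrophilin genes, 2 were higher and 1 lower, with a median of 0.02. Havcr2, the checkpoint receptor TIM-3, read 7.06, 7.07, 7.01, 7.02 and 6.92 against 6.35, 6.43 and 6.54. The groups were tight and well apart, with a difference of 0.58 ± 0.07 or 1.49-fold (adjusted p = 7.37e-05). Cd80, a costimulatory ligand, was higher by 0.19 ± 0.04 (adjusted p = 0.0435) with no overlap, and passed in 1 of 11 fits with an array left out (adjusted p = 0.107 without wildtype replicate 1). The butyrophilin-like Btnl9 was lower, with a difference of -0.50 ± 0.10 (adjusted p = 0.0255) and overlapping arrays, and passed in 4 of 11 such fits (adjusted p = 0.0856 without ApoE-KO replicate 3). Gimap6, a GTPase of lymphocytes and endothelium, read 8.72, 8.70, 8.54, 8.58 and 8.64 against 8.98, 9.01 and 9.05, with no overlap and a difference of -0.38 ± 0.07 (adjusted p = 0.00985); the other 7 measured GIMAP genes were not called and the family's median was -0.07. Ly6f, a small surface protein, read 5.46, 5.67, 5.75, 6.10 and 6.26 against 6.30, 6.37 and 6.71, a difference of -0.59 ± 0.12 (adjusted p = 0.0241) that passed in 6 of 11 fits with an array left out (adjusted p = 0.0900 without ApoE-KO replicate 2). It was the only call among 14 Ly6 genes, several of which are close copies, and whether its probes bind other Ly6 transcripts was not tested.

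The remaining lists held few or no calls. Adamts9, a protease of the pericellular matrix, was the only call among 21 matrix metalloproteinases and inhibitors. It read 9.17, 8.96, 9.08, 9.04 and 9.03 against 9.25, 9.32 and 9.38, with no overlap and a difference of -0.26 ± 0.05 (adjusted p = 0.0212), and it passed in 7 of 11 fits with an array left out (adjusted p = 0.0900 without ApoE-KO replicate 2). E2f8, a repressor of cell cycle genes, was the only call among 39 cell cycle and replication genes. It read 9.39, 9.45, 9.45, 9.37 and 9.46 against 8.95, 9.13 and 9.25, with no overlap and a difference of 0.29 ± 0.06 (adjusted p = 0.0316), and passed in 4 of 11 such fits (adjusted p = 0.0900 without ApoE-KO replicate 2). In that list 30 differences were negative, while over all genes 51.2% were positive, and the median was -0.05. Cdk1 differed by -0.20 ± 0.06 (0.191) and Mki67 by -0.10 ± 0.06 (0.656).

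Inflammation of endothelium is usually read from adhesion molecules and chemokines. Of 26 such genes 0 were called, against 0.530% of all genes, with a list median of 0.03. At that share most lists of this size, here and below, would hold no call, so a count of 0 says little. Vcam1 differed by 0.15 ± 0.08 (adjusted p = 0.577), Icam1 by 0.11 ± 0.10 (0.766), Sele by 0.06 ± 0.09 (0.881), Selp by -0.01 ± 0.05 (0.974) and Ccl2 by 0.31 ± 0.10 (0.236). None was called among 18 haemostasis genes (median 0.02), 25 NRF2 targets (-0.01), 19 clock genes (0.03), 29 interferon-stimulated and MHC class I genes (-0.01) and 26 collagens and basement membrane genes (-0.05). In these, the smallest adjusted p-values belonged to F2r at 0.278, Slc7a11 at 0.182, Nr1d1 at 0.172, Ifit2 at 0.291 and Itga5 at 0.152. A p that misses the threshold does not show that the levels were equal. With the median SE of 0.070, a 95% interval of a difference spans about 0.14 to either side of its estimate.

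**Figure D4:**
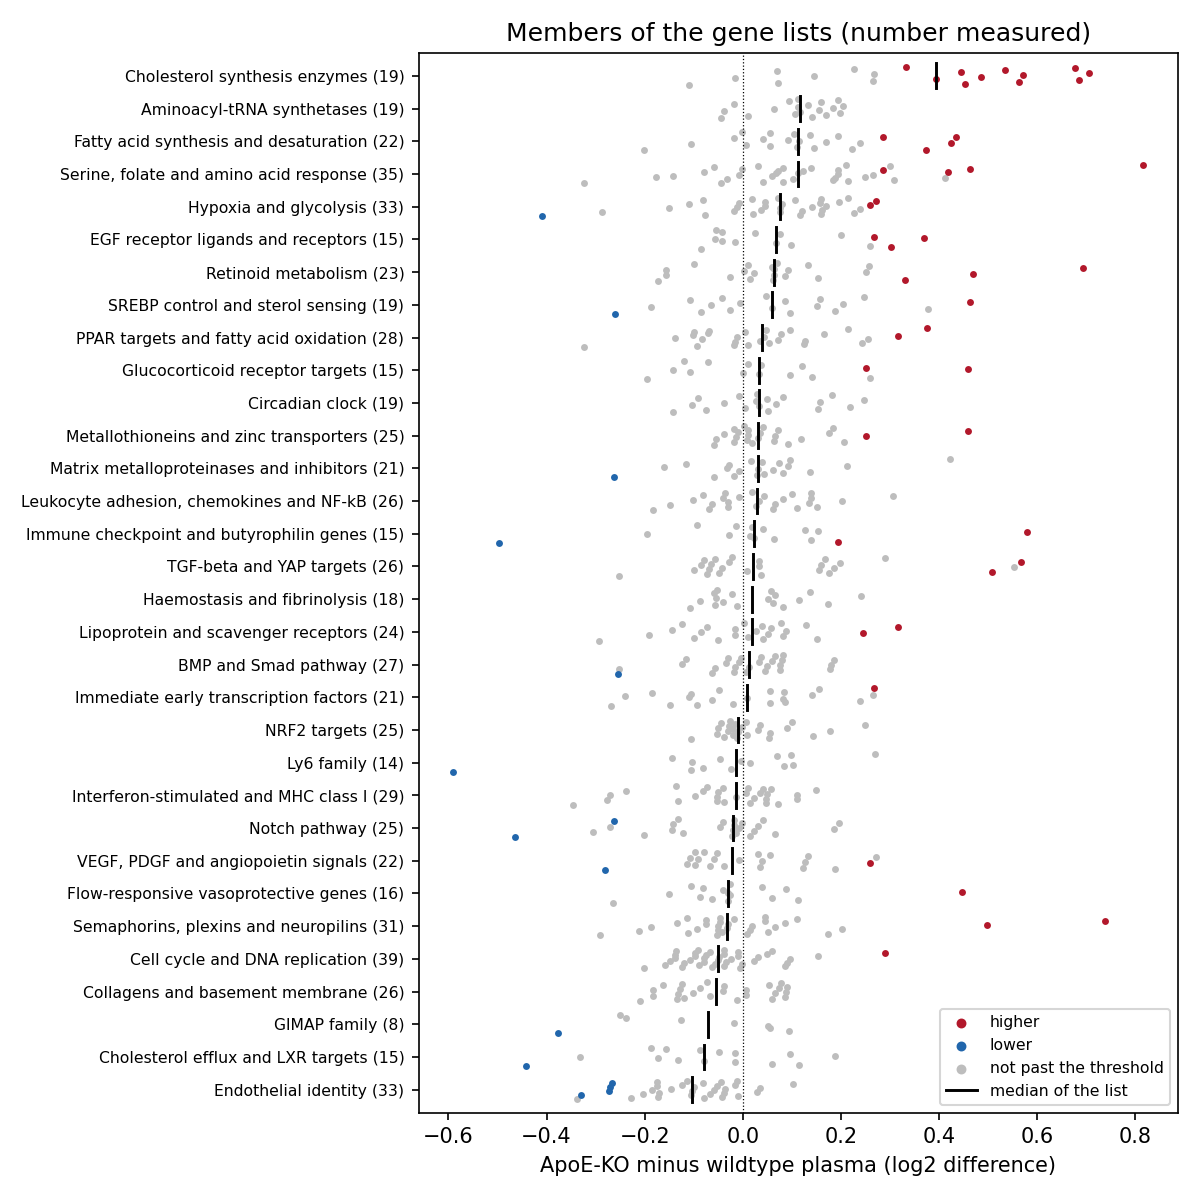
Each point is the ApoE-KO minus wildtype difference (log2) of 1 measured member of a gene list, with the number measured in brackets; red points were called higher, blue lower and grey neither, and the black bar is the list's median. The cholesterol synthesis enzymes at the top have a median of 0.39 and 11 red points, and the endothelial identity list at the bottom has a median of -0.10 and 4 blue points.

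Transcripts outside protein-coding genes made up 13 of the 131 calls and held the largest decrease. Gm13609, a long non-coding RNA whose gene overlaps Nup214, read 7.29, 7.03, 7.29, 7.61 and 7.53 against 7.87, 8.06 and 8.90, with no overlap. The difference was -0.82 ± 0.14 or a ratio of 0.566 (adjusted p = 0.00638, or 0.0540 with the 11 compared arrays alone). Its highest wildtype array, at 8.90, lay far above the wildtype median of 8.06, and whether that array stands apart was not tested. The size of the difference may rest in part on that array. Nup214 itself differed by -0.01. Gm16617, whose gene overlaps Arhgef40, read 3.93, 3.75, 3.56, 4.10 and 3.95 against 4.40, 4.43 and 4.88, a difference of -0.68 ± 0.10 (adjusted p = 0.000639), with the wildtype arrays just above and the ApoE-KO arrays below the median level of all genes. Arhgef40 differed by -0.16 (adjusted p = 0.303). The small nucleolar RNA genes Snord45b and Snord14e were lower as well, while the genes that overlap them were not called. Snord45b differed by -0.62 ± 0.11 (adjusted p = 0.00618) and Rabggtb by 0.08 (0.779), and Snord14e differed by -0.47 ± 0.09 (adjusted p = 0.0145) and Hspa8 by 0.15 (0.899). Snord14e lost its call without ApoE-KO replicate 2 (adjusted p = 0.0712). Gm15441, whose gene overlaps Txnip, differed by -0.57 ± 0.13 (adjusted p = 0.0461) and Txnip by -0.03 (0.880). Gm13351, which overlaps Mllt10, differed by -0.57 ± 0.13 (0.0477). Gm15441 and Gm13351 passed in 3 and 1 of 11 fits with an array left out, and each had its highest adjusted p, 0.151, without ApoE-KO replicate 2. Among the 5 that were higher, Gm12648 had the largest difference, 0.54 ± 0.10 (adjusted p = 0.00654). The gene table gives no strand for these overlaps, and the strand that the probes read was not tested.

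Of the called genes in no list, those with the largest differences had varied functions. Nwd1, a protein with NACHT and WD repeat domains, read 7.36, 7.12, 7.22, 7.11 and 7.44 against 7.58, 7.81 and 8.00, with no overlap and a difference of -0.57 ± 0.08 (adjusted p = 0.000802). The magnesium transporter gene Nipal1 was higher by 0.48 ± 0.07 (adjusted p = 0.00101), and the GTPase gene Rab7b of late endosomes by 0.45 ± 0.10 (0.0354). Lower genes were the small GTPase Gem at -0.38 ± 0.07 (adjusted p = 0.0101), Ttyh1 of the tweety channel family at -0.38 ± 0.07 (0.0111), the methylcytosine oxidase Tet3 at -0.38 ± 0.08 (0.0397), the bacterial sensor Nod1 at -0.36 ± 0.08 (0.0487) and Cstad at -0.47 ± 0.10 (0.0355). The following were chosen after their values were seen. Ldb2, a cofactor of LIM-domain factors, at -0.35 ± 0.07 (0.0150), the laminin chain Lama3 at -0.33 ± 0.08 (0.0477) and the exocytosis GTPase Rab27a at -0.33 ± 0.07 (0.0383) were lower. The sheddases Adam8 at 0.42 ± 0.09 (0.0324) and Adam9 at 0.19 ± 0.04 (0.0401), the apoptosis protease Casp8 at 0.23 ± 0.05 (0.0431) and the vesicle tether Vps33b at 0.31 ± 0.06 (0.00654) were higher, as was Tmem41b, a lipid scramblase of the endoplasmic reticulum, at 0.39 ± 0.08 (0.0340). Of the genes in this paragraph, Nwd1, Nipal1, Gem, Ttyh1 and Vps33b held their calls with any 1 array left out (Vps33b not with the 11 compared arrays alone, adjusted p = 0.0634), and the others did not. Nod1 and Adam9 passed in 1 of the 11 fits, Rab7b, Cstad, Lama3 and Casp8 in 2, Tet3 and Adam8 in 3, Rab27a in 4, Tmem41b in 5 and Ldb2 in 9. Ldb2 lost its call without ApoE-KO replicate 2 or 3. The highest value for Nod1 was adjusted p = 0.180 without ApoE-KO replicate 2 and for Ldb2 adjusted p = 0.0597 without ApoE-KO replicate 2, and those of the others lay between.

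The plasmas of mice that lacked a Stabilin besides apolipoprotein E are set beside these values. Their differences from ApoE-KO plasma share the ApoE-KO arrays with the comparison above, so the sets of differences are not independent. Mean levels of Msmo1 were 9.55 with wildtype, 10.24 with ApoE-KO, 9.91 with ApoE-Stab1-KO and 9.93 with ApoE-Stab2-KO plasma. For Sprr1a the same means were 5.46, 6.63, 6.42 and 6.55, for Sema3e 7.92, 8.41, 8.41 and 8.40, and for Dll4 8.99, 8.52, 8.42 and 8.58. The double knockout means of Msmo1 lay between those of wildtype and ApoE-KO plasma, while for Sema3e and Dll4 they lay close to that of ApoE-KO plasma. Of the 131 called genes, 4 also passed the threshold against ApoE-KO plasma in a double knockout: Dhcr7 with ApoE-Stab1-KO plasma (difference -0.38, adjusted p = 0.0259), and Hmgcs1 (-0.34, 0.0260), Havcr2 (-0.39, 0.0420) and Gm16617 (0.58, 0.0260) with ApoE-Stab2-KO plasma. All 4 ran back towards the wildtype level, a direction favoured because the genes were called on the same ApoE-KO arrays. The share of all genes that passed in these comparisons is not given here.

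How far the calls rest on single arrays was read by leaving out each of the 11 arrays in turn. The count of called genes fell from 131 to between 55 and 109. It was lowest without ApoE-KO replicate 2 (55 genes) and replicate 3 (69), and next lowest without wildtype replicate 1 (78), 6 (81), 5 (85) and 4 (87). In all 11 fits 51 of the 131 genes passed, 34 of them higher and 17 lower, and 3 genes, Dda1, Tssk5 and Vamp5, passed in none. Those that passed throughout include 9 of the cholesterol enzymes, Insig1, Elovl6, Scd1, Fads2, Fads3, Lrp8, Abca1, Sema3c, Sema3e, Sprr1a, Havcr2, Thbs1, Cyp1b1, Nrg1, Ereg, Dhrs9, Dll4, Mfng, Pdgfb, Egfl7, Mir126a, Mcam, Ptprm, Fbp1 and Gimap6. Calls lost in most of these fits included genes next to the threshold, such as Cd36 at an adjusted p of 0.0487, which passed in 1 fit. They were not confined to such genes: Btnl9, at 0.0255 with all arrays, passed in 4 fits. When only the 11 compared arrays were fitted, 66 of the 131 genes were still called. Among those that had passed in all 11 fits, 5 were not: Abca1 (adjusted p = 0.0852), Gm13609 (0.0540), Gm5237 (0.0504), Hsd17b7 (0.0554) and Vps33b (0.0634).

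**Figure D5:**
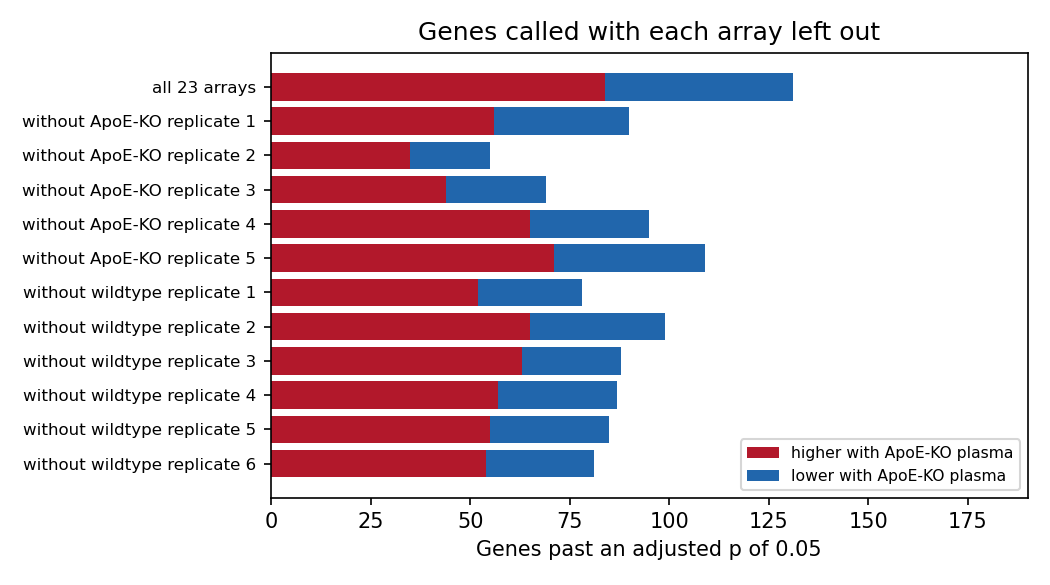
Bars give the number of genes past an adjusted p of 0.05, higher in red and lower in blue, with all 23 arrays in the fit and with each of the 11 arrays left out in turn. The count is 131 with all arrays, 55 without ApoE-KO replicate 2 and 109 without ApoE-KO replicate 5.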

How the data were processed

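Expression was measured on microarrays, 1 array per sample, in 23 samples of primary mouse aortic endothelial cells, of which 11 are compared here. The deposited values are log2 intensities per probe set that the authors made with RMA, per the submitters' processing notes; for the software version, its settings and the array's genome build, no information was given in the sources used here. RMA subtracts background, sets every array to 1 distribution and combines the probes of a set. The sorted values differed by at most 0.0019 between arrays, so a shift common to most genes cannot be seen. ApoE-KO replicate 1 was stored with finer decimals than the others (4.21% of its values on a grid that held 100% of the values of every other array).

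Of 25428 probe sets, 24705 had 1 gene symbol in the platform annotation, 0 had several, and 723 had none and were left out. For a symbol on 2 probe sets the brighter was kept, which gave 24704 genes. RefSeq tables of GRCm38.p6 gave the gene class (19683 protein-coding genes, 4989 of other classes, 32 not matched) and the sequences printed.

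Levels were fitted with limma 3.58.1 (lmFit and eBayes) in R 4.3.3 on all 23 arrays with 4 group means (residual df 19, prior df 4.19), and p-values were adjusted by Benjamini-Hochberg over all genes. The fit was tested on simulated data. Tables and figures were made with Python 3.11.15, pandas 2.3.3 and matplotlib 3.10.9. The members and lists were chosen with earlier results of these data known. There were 32 lists with 738 distinct genes, of which 706 were measured. Named were the called members of each list, its 4 members of smallest p, key members of each pathway, the 20 highest and 20 lowest called genes and the 20 genes of smallest adjusted p, besides the knocked-out genes and Stabilin ligands. Remaining cholesterol enzymes, genes that overlap a called non-coding gene and marker genes were added to complete their sets. The lists of keratinizing epithelium and mesothelium and the count of groups without overlap were added after the values were seen. The labels do not state that the replicate number pairs samples, so the fit has no block. Pairing by number was read only in ApoE-KO and wildtype arrays, and a shared batch was not tested. Alternatives changed the arrays, the normalization, the filter, the variance model and the threshold.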

Additional observations from a re-analysis of the deposited data

Results flagged for a closer look

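For 35 genes, 70 groups of 5 or 6 arrays were tested for an array that stands apart by Dixon's criterion. Of these groups 3 met it, where chance gives about 1 in 20. Gm13609, Mir126a and Srebf2, whose array values are also printed above, were not among the genes tested. Abca1 read 8.37 in ApoE-KO replicate 1, while the other 4 ApoE-KO arrays lay between 7.73 and 7.89; this is also the array stored with finer decimals. Aldh1l2 read 4.75 in wildtype replicate 1, below the other 5 wildtype arrays at 5.31 to 5.53. Fbp1 read 6.83 in wildtype replicate 2, above the other 5 at 6.50 to 6.60. The calls of Abca1, Aldh1l2 and Fbp1 held without these arrays.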

How the results depend on the processing

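No call changed direction under any alternative that was run. The alternatives reused nearly all of the same arrays, so a change of sign was unlikely from the start. The count of 131 called genes (84 higher, 47 lower) became 80 (53 higher, 27 lower) when the 11 compared arrays were fitted alone, 212 (128 and 84) with array weights and 12 (7 and 5) with an added fold threshold of 1.5. With 1 array left out it ran from 55 to 109, with 35 to 71 higher and 20 to 38 lower. Of the 131 genes, 66 were still called with the 11 arrays alone, 131 with array weights and 54 to 90 with 1 array left out. With a replicate block by the replicate number the count was 91 (58 higher, 33 lower), and 83 of the 131 genes passed. Same-numbered ApoE-KO and wildtype arrays correlated in their deviations at r = -0.147 to 0.129, and 1 of the 5 ApoE-KO arrays correlated best with its own number. The arrays with plasma of Stabilin knockouts were not read in this way, and a shared batch was not tested. Counts were 126 after centring each array on its median, 133 after a new quantile normalization, 171 among genes above the median level, 133 with trend and robust variance settings and 136 among protein-coding genes alone. Genes near the array median have signals close to background, where a fold may be understated. Platform annotation can be old, and probes may bind close relatives.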
